A study of Mus musculus with 4 samples.

Results

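The genes described here encode the core of the splicing machinery and the hnRNP proteins. They comprise 65 protein-coding genes among the 54232 genes counted, chosen by symbol alone: 11 SR proteins (Srsf followed by a number), 12 snRNP proteins (symbols that begin with Snrp), 9 subunits of SF3a and SF3b, 13 PRPF factors and 20 hnRNP genes. The choice used no expression value. Symbols spelled Snrnp fall outside it, so Snrnp70 and Snrnp200 are described with the other splicing genes. Their transcripts were measured by bulk RNA sequencing in RPP631, a mouse line labelled as small cell lung cancer (SCLC). One group received the vehicle DMSO and the other YKL at 100 nM, both for 48 h. YKL is a compound that the series title places among inhibitors of CDK7. Each group held 2 libraries, from 29817387 to 34189709 assigned counts in all 4, and every comparison rests on this single line. The labels do not give its genotype and do not say whether replicate libraries came from separate cultures. A p-value here therefore reflects how much these libraries vary, which may be technical.

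Introns are removed by the spliceosome, which assembles on each transcript from small nuclear ribonucleoproteins (snRNPs), particles of a short RNA and its proteins. U1 marks the start of an intron and U2, with SF3a and SF3b, its branch point, after which the U4/U6 and U5 particles join and are rearranged by the PRPF factors. SR proteins bind exons and promote the use of nearby splice sites, whereas hnRNP proteins coat the nascent transcript and often repress such sites. Both classes shape alternative splicing, and many of their genes limit their own mRNA through splicing events that lead to decay. CDK7 is the kinase of the transcription factor TFIIH and acts on RNA polymerase II, on whose transcripts splicing takes place.

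The label of the line was checked against marker genes. Neuroendocrine markers, among them Chga, Insm1 and Syp, were present at no less than 178 CPM (counts scaled to a common library size) in every library, and the 4 epithelial markers at 302 to 835 CPM. Cd3e, a marker of T cells, had no count, and the leukocyte list of 4 genes summed to 1.58 and 2.22 CPM in DMSO and 5.45 and 3.79 CPM in YKL. Whether these transcripts play a part in the results below was not tested. Levels are CPM after TMM scaling, which centres the fold changes of most genes on 0, so that a shift common to nearly all genes is invisible. A library with less RNA per cell cannot be told apart from one made from fewer cells. All 65 members passed the filter on low counts, with mean counts from 130.2 for Srsf12 to 45841.8 for the most abundant gene.

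Of these 65 genes, 1 was called higher and 1 lower under YKL. Snrpa1, which encodes the U2 snRNP protein A′, rose, and Hnrnpa1, which encodes the splicing repressor hnRNP A1, fell. Called means an adjusted p below 0.05 (Benjamini-Hochberg, 16749 genes) in edgeR's quasi-likelihood test. By this rule 2 of 65 members (3.08%) were called, 1 in each direction, against 3.54% of all genes tested (2.1% higher and 1.44% lower), a share near the background. The median log2 fold change of the members, YKL over DMSO, was -0.10, against -0.00014 over all genes, and 42 of 65 values (64.6%) were below 0, against 50% of all genes. At an unadjusted p under 0.05 by edgeR stood 3 members above 0 and 8 below, against 11.3% and 9.9% of all genes. The groups did not overlap in 11 members with YKL above and 24 with YKL below, against 27% and 25.3% of all genes. The median size of a change, whatever its sign, was 0.23 for the members and 0.35 for all genes.

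**Figure D1:**
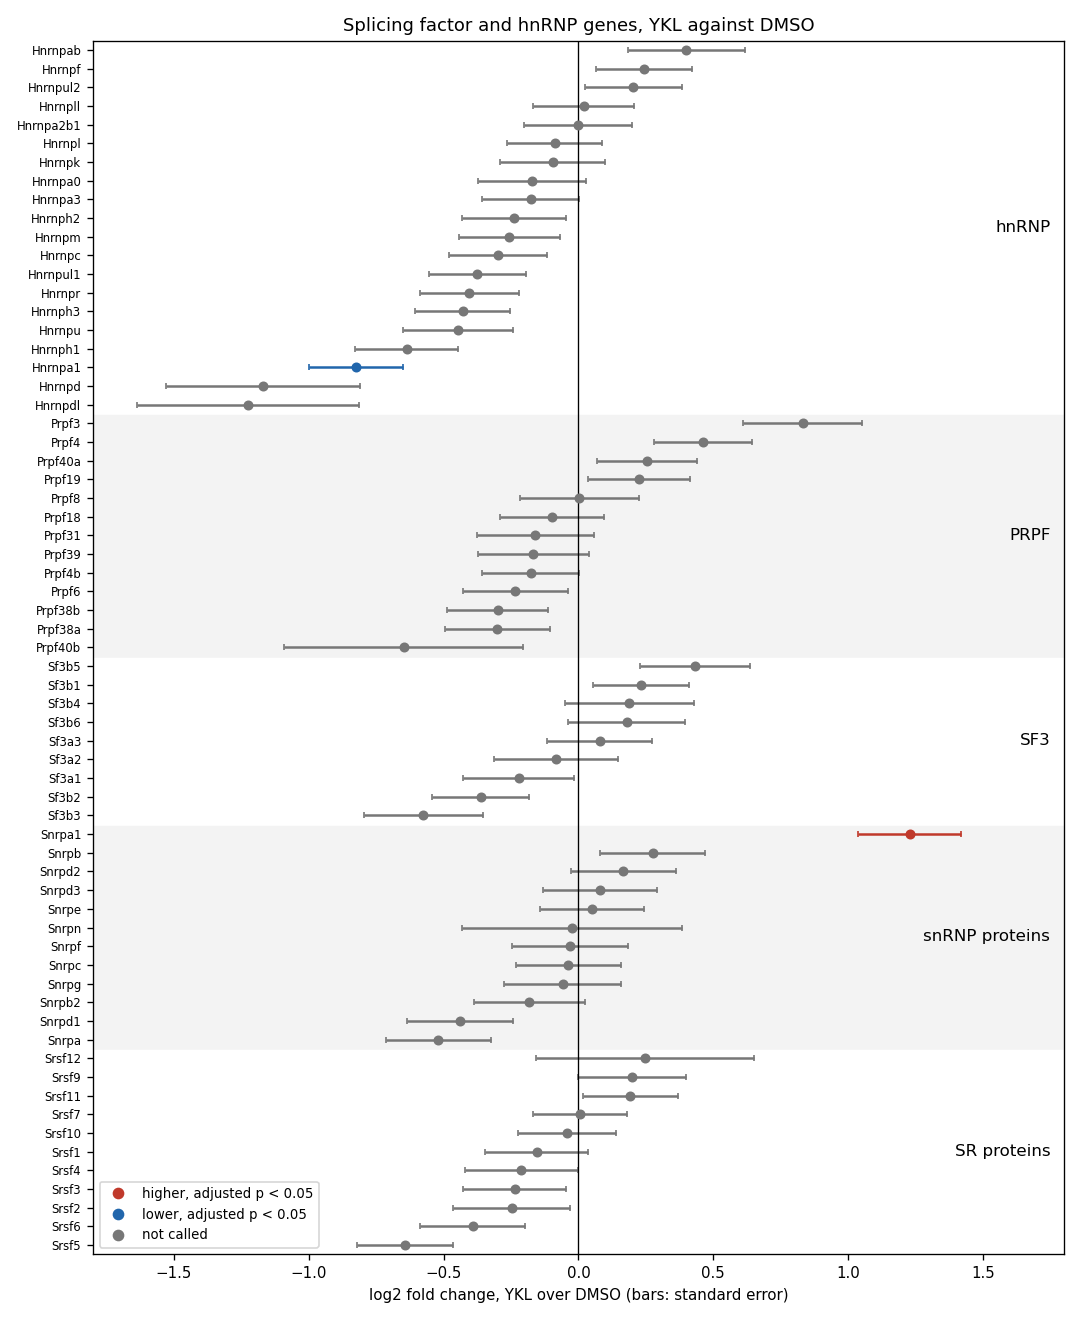
Each point is the log2 fold change of a member, YKL over DMSO, with its standard error from edgeR, sorted within the 5 families. Snrpa1 (red, 1.23) and Hnrnpa1 (blue, -0.82) are the called members. Hnrnpd and Hnrnpdl lie further to the left than Hnrnpa1 but with wider bars.

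The libraries of the DMSO pair differed in these genes. In 56 of 65 members the level was higher in DMSO replicate 1 than in DMSO replicate 2, by a median of 0.23 on the log2 scale, whereas YKL replicate 1 was above YKL replicate 2 in 26, with a median difference of -0.07. Summed over all members, the level was 18961 and 15475 CPM in DMSO replicates 1 and 2 and 15516 and 16434 CPM in YKL. DMSO replicate 1 was the highest of the 4. How many of all genes were higher in DMSO replicate 1 than in DMSO replicate 2 was not counted. The members' median log2 fold change was 0.0052 without DMSO replicate 1 and -0.24 without DMSO replicate 2, with 32 and 49 of 65 values below 0. The median was -0.046 without YKL replicate 1 and -0.17 without YKL replicate 2. The lean of the members below 0 thus changed in size with the library left out, and the reason was not tested.

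**Figure D2:**
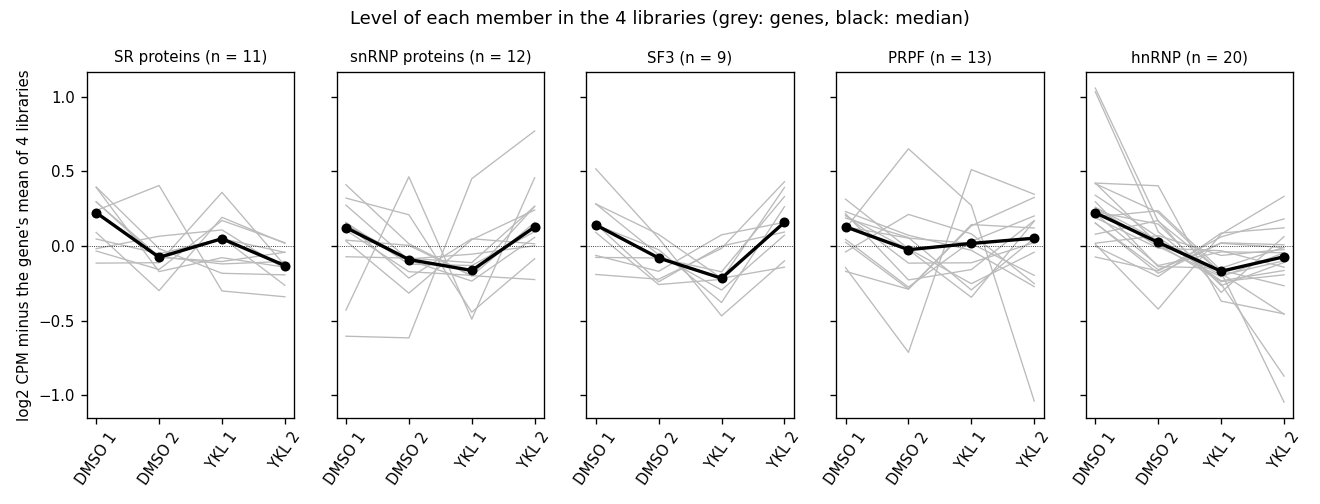
For each family the log2 CPM of every member minus its mean over the 4 libraries is drawn in grey, with the median in black. In every family the median is higher in DMSO replicate 1 than in DMSO replicate 2, and the hnRNP medians of both YKL libraries lie below those of both DMSO libraries.

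Among the snRNP proteins, 1 of 12 was called. Snrpa1 (ENSMUSG00000030512, chromosome 7, 66059003 to 66074587, mm10) had 60.4 and 60.0 CPM in DMSO replicates 1 and 2 and 126 and 157 CPM in YKL replicates 1 and 2. Both YKL libraries lay above both DMSO libraries, by more than the gap within either pair. The gene rose 2.34-fold, from 60.2 ± 0.336 to 141 ± 22.0 CPM (mean ± SD, n = 2; log2 fold change 1.23 ± 0.19, standard error; edgeR adjusted p = 0.0157). This call held in 12 of 13 refits with another scaling, filter, tool or set of libraries. It ended without YKL replicate 2, where the log2 fold change was 1.06, in a fit that called a smaller share of all genes. Snrpb2, whose protein B″ binds U2 together with A′, had 93.5 and 72.4 CPM in DMSO and 65.7 and 80.5 CPM in YKL. These groups overlapped, and its log2 fold change was -0.18 ± 0.21.

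Neither of the U1 proteins among the members, Snrpa and Snrpc, was called. Snrpa, which encodes the A protein of U1 and is a relative of Snrpb2, had 104 and 96.4 CPM in DMSO and 61.4 and 78.6 CPM in YKL. Its groups did not overlap, yet the difference (log2 fold change -0.52 ± 0.19) was not called (edgeR adjusted p = 0.167). Some of its exonic bases, 11.03%, are shared with BC024978 on the other strand. Snrpc, which encodes the C protein of U1 and helps U1 to bind the start of the intron, had a log2 fold change of -0.04 ± 0.19.

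The Sm proteins form the ring that is common to the spliceosomal particles other than U6. None of these 7 genes was called, and their log2 fold changes ran from -0.44 for Snrpd1 to 0.28 for Snrpb. Snrpd1 had 126 and 95.4 CPM in DMSO and 82.3 and 80.8 CPM in YKL, groups that did not overlap (edgeR adjusted p = 0.236). With each library left out in turn, its log2 fold change ran from -0.657 to -0.225. Snrpb, which encodes SmB, had 316 and 248 CPM in DMSO and 318 and 365 CPM in YKL (adjusted p = 0.46), with the lowest YKL library just above the highest DMSO library. These genes differed in level per length, from 17.2 CPM per kb of exon for Snrpg to 157.8 for Snrpb. Snrpn, the imprinted neuronal relative of Snrpb, had 20.1 and 37.4 CPM in DMSO and 19.3 and 37.2 CPM in YKL. In both groups replicate 2 was higher, 1.86-fold in DMSO and 1.93-fold in YKL, while the group means were 28.8 ± 12.2 and 28.3 ± 12.7 CPM. Part of the Snrpn exons, 27.28% of the bases, is shared with Gm38393 on the same strand.

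The hnRNP family held the other called member. Hnrnpa1 (ENSMUSG00000046434, chromosome 15, 103240432 to 103246692) had 227 and 225 CPM in DMSO and 131 and 124 CPM in YKL. The libraries of each pair lay close together and the groups were well apart. The drop was 1.77-fold, with means of 226 ± 2.01 CPM under DMSO and 128 ± 5.36 CPM under YKL (log2 fold change -0.82 ± 0.17, edgeR adjusted p = 0.0379). Its log2 fold change stayed between -0.87 and -0.78 in all 13 refits. The call nevertheless ended when libraries were scaled by total count, when the prior was not robust, and without YKL replicate 1 or 2. Each of these fits called a smaller share of all genes than the main fit. Hnrnpa1 has many processed copies in the genome. Of its transcript words of 50 bases, 28.23% occur also in transcripts of 20 other genes. For the 17 pseudogenes among them the summed counts were 116 and 76 (DMSO) and 38 and 47 (YKL), beside 7607, 7077, 4029 and 3992 for Hnrnpa1 itself in the same order. Reads that fit several copies may be missing from the table, since the counting of such reads is not given in the sources used here.

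The stretch before the RefSeq start of Hnrnpa1 is shown because this was the member called lower, that of Snrpa1 because it was the member called higher, and that of Hnrnpd because its libraries followed the same order as those of its neighbour Hnrnpdl. The bases come from RefSeq's start sites on GRCm38.p6, the build also known as mm10, and run from 5′ to 3′ on the gene's strand, restricted to bases in no annotated exon. Capitals mark CCAAT boxes (CCAAT), GC boxes (GGGCGG) and E-boxes (CACGTG), each searched on both strands. The windows are chr15:103240147-103240396 (+), chr7:66060086-66060298 (+) and chr5:99978939-99979060 (-). For Snrpa1 the annotations differ: the deposited gene begins at 66059003, so that this window lies inside the gene as deposited, ahead of the start that RefSeq gives.
Hnrnpa1: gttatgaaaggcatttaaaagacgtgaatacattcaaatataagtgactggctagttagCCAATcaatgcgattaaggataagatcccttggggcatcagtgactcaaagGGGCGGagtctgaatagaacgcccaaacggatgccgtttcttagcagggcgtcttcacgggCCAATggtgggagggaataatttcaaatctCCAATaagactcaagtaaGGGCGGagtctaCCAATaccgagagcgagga
Snrpa1: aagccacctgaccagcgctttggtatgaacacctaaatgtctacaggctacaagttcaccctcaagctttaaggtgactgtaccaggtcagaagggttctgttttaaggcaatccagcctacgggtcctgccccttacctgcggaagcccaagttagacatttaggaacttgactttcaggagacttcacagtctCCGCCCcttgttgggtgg
Hnrnpd: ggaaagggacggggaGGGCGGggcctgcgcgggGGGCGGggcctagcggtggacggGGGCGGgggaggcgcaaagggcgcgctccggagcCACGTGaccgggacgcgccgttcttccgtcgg

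The Hnrnpa1 window holds 4 CCAAT boxes and 2 GC boxes, that of Snrpa1 1 GC box and no CCAAT box, and that of Hnrnpd 3 GC boxes and 1 E-box. Promoters were listed for 57 of the 65 members. In the 250 bases before the start, a CCAAT box was found in 47.4% of these 57 and in 34.5% of the promoters of 27025 genes. The share was 66.7% (12 of 18) for hnRNP genes and 27.3% (3 of 11) for SR proteins. A GC box was found in 66.7% of the members, 10 of the 11 SR proteins among them, and in 32.9% of all genes. E-boxes were found in 8.8% of the members and 6% of all genes. The TATA box (TATAAA) was found in 8.8% of the members and 13% of all genes. The printed windows of Hnrnpa1, Snrpa1 and Hnrnpd lack it, but 2 of them are shorter than 250 bases. That of Snrpa1 has 213 bases and ends 38 bases before the start, and that of Hnrnpd has 122 bases. A match describes letters in these windows and is not evidence of binding.

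Hnrnpd and Hnrnpdl had the lowest log2 fold changes of all members and were not called. They encode AUF1, which binds AU-rich elements and is known for its part in mRNA decay, and its close relative. The genes are neighbours on chromosome 5, 54.6 kb apart (99955935 to 99978938 and 100033577 to 100039664). Hnrnpd had 397 and 208 CPM in DMSO and 163 and 106 CPM in YKL, and Hnrnpdl had 412 and 222 CPM in DMSO and 175 and 95.9 CPM in YKL. In both genes the order of the libraries was the same and the groups did not overlap. Replicate 1 exceeded replicate 2 in each group, 1.91-fold and 1.53-fold for Hnrnpd and 1.86-fold and 1.83-fold for Hnrnpdl. The log2 fold changes were -1.17 ± 0.36 (edgeR adjusted p = 0.141) and -1.23 ± 0.41 (adjusted p = 0.182). Each of these genes was called with DESeq2, with no filter and with a replicate block. Those fits called 9.55%, 5.79% and 8.28% of all genes, against 3.54% in the main fit. Without DMSO replicate 1 their log2 fold changes were -0.63 and -0.71.

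The other hnRNP genes leaned the same way without being called. Of all 20, 16 had a log2 fold change below 0, with a median of -0.25. The lean was not confined to this family. Among the 14 SR-related genes described below, 12 were below 0 and 2 above (median -0.32). Summed over the 20 hnRNP genes, the level was 10136 and 8173 CPM in DMSO and 8080 and 8285 CPM in YKL, overlapping groups. In 13 of the 20 (65%) the groups were separate with YKL below, against the 25.3% of all genes (in either direction 80% against 52.3%). Hnrnpa1 was the 1 called gene among these 13. The family's median stayed below 0 in all 13 refits. Without DMSO replicate 1 it was -0.15, with 13 of 20 values below 0. Without DMSO replicate 2 it was -0.41, with 17 of 20 values below 0. Of those named after their values were seen, Hnrnph1 encodes a splicing regulator that binds G-rich sequences. It had 672 and 588 CPM in DMSO and 443 and 367 CPM in YKL. Its log2 fold change was -0.64 ± 0.19 (edgeR adjusted p = 0.1), and it was called with DESeq2 and with no filter. Hnrnpu, which encodes a nuclear scaffold protein, had 987 and 743 CPM in DMSO and 625 and 645 CPM in YKL. Its log2 fold change was -0.45 ± 0.20 (edgeR adjusted p = 0.242).

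The members with the highest levels per length, Hnrnpab and Hnrnpa2b1, were hnRNP genes that were not called. Hnrnpab, which encodes an AUF1-related protein, had the highest level per length, at 400 CPM per kb in DMSO and 528 in YKL. Its library values were 1278 and 946 CPM in DMSO and 1340 and 1596 CPM in YKL (a log2 fold change of 0.40 ± 0.22, adjusted p = 0.329). Some of its exonic bases, 29.08%, are shared with Phykpl on the other strand. Hnrnpa2b1, a relative of Hnrnpa1, followed with 218 and 217 CPM per kb. It had 1587 and 1279 CPM in DMSO and 1446 and 1417 CPM in YKL, so that the YKL libraries lay between the DMSO libraries. Its log2 fold change was -0.0016 ± 0.20. Hnrnpk, whose protein binds C-rich sequences, had 782 and 615 CPM in DMSO and 655 and 653 CPM in YKL, again within the range of DMSO. The level of Hnrnpf was 76.9 and 72.1 CPM in DMSO and 84.5 and 91.8 CPM in YKL (a log2 fold change of 0.24 ± 0.18), but 43.22% of its 50-base words recur in other genes, 6 of them pseudogenes.

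**Figure D3:**
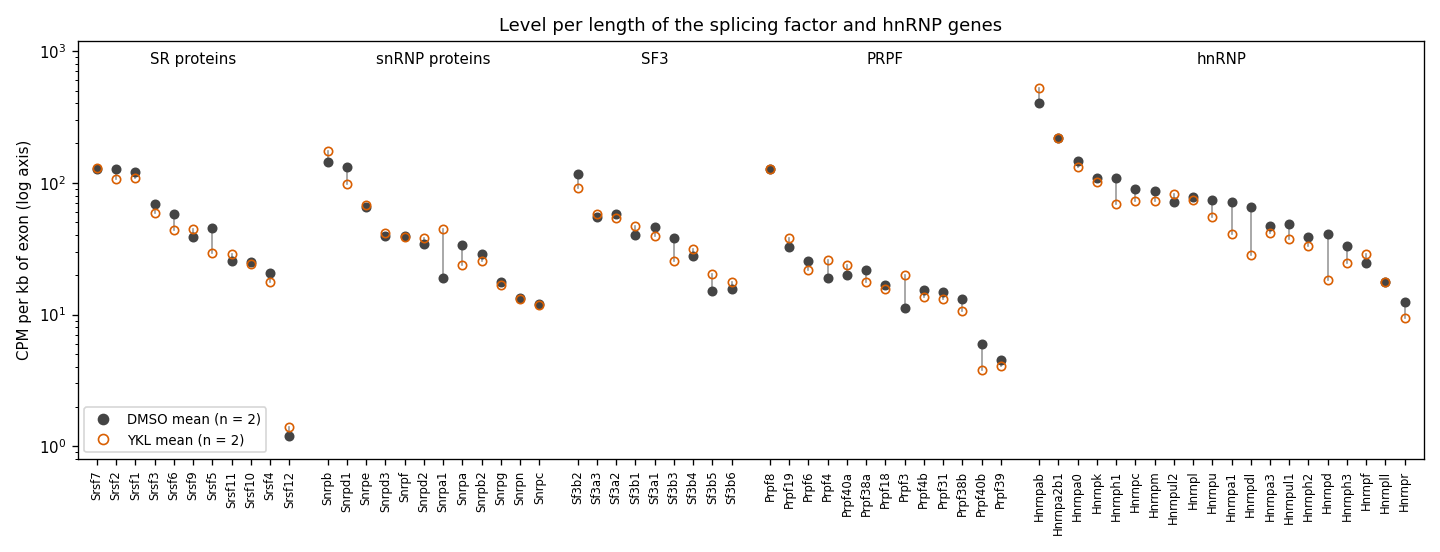
Mean level of each member per kb of exon on a log axis, DMSO filled and YKL open, sorted within each family. Levels run from about 1.3 CPM per kb for Srsf12 to 464 for Hnrnpab (mean of both groups), and most filled and open points of a gene lie close together.

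None of the 11 SR protein genes was called, and 1 had an unadjusted p under 0.05 by edgeR. That gene, Srsf5, which is known to respond to growth signals, had 171 and 192 CPM in DMSO and 118 and 114 CPM in YKL. Its groups were apart by more than the gap within either pair, at a log2 fold change of -0.64 ± 0.18 (edgeR adjusted p = 0.0805). DESeq2 and the fit with no filter called it. Srsf6 had 317 and 238 CPM in DMSO and 212 and 211 CPM in YKL (-0.39 ± 0.20, adjusted p = 0.288).

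The best known SR genes, Srsf1, Srsf2, Srsf3 and Srsf7, were not called, with log2 fold changes from -0.25 to 0.0054. Srsf1, the founding member of the family, had 756 and 615 CPM in DMSO and 603 and 629 CPM in YKL (a log2 fold change of -0.15 ± 0.19). Srsf2, a factor mutated in myeloid disease, had 451 and 305 CPM in DMSO and 326 and 312 CPM in YKL (-0.25 ± 0.22), and 0.06 without DMSO replicate 1. In both genes a single DMSO library was high and the others were alike. Srsf3, the smallest of the family, had 400 and 310 CPM in DMSO and 300 and 303 CPM in YKL (-0.24 ± 0.19). Its groups did not overlap, with YKL below. Srsf7 had 302 and 282 CPM in DMSO and 302 and 284 CPM in YKL (0.0054 ± 0.17) and the highest level per length of the family, at 128 CPM per kb. At the other end stood Srsf12, a gene of restricted expression, at 1.3 CPM per kb, with 3.74 CPM in both DMSO libraries and 5.19 and 3.69 CPM in YKL. Srsf9 had 72.8 and 55.6 CPM in DMSO and 78.1 and 69.2 CPM in YKL (0.20 ± 0.20).

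SF3a and SF3b bind the U2 particle and hold the branch point. None of their 9 genes was called, and 4 of 9 log2 fold changes were below 0 (median 0.08). Sf3b1, which encodes the large scaffold that contacts the branch point and is often mutated in blood cancers, had 474 and 440 CPM in DMSO and 521 and 552 CPM in YKL. The groups did not overlap, but the difference was small (log2 fold change 0.23 ± 0.18, adjusted p = 0.501). Sf3b3, a partner of Sf3b1 in the same complex, was on the other side of 0, with 481 and 348 CPM in DMSO and 243 and 314 CPM in YKL (-0.57 ± 0.22, adjusted p = 0.176). Its log2 fold change was -0.82 without DMSO replicate 2 and -0.32 without DMSO replicate 1.

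Sf3b2, the most abundant of the 9 per length, had 403 and 350 CPM in DMSO and 285 and 300 CPM in YKL (-0.36 ± 0.18, adjusted p = 0.285). Sf3b5, a small subunit, had 58.3 and 57.0 CPM in DMSO and 65.8 and 89.7 CPM in YKL (0.43 ± 0.20, adjusted p = 0.262). For Sf3a3 the values were 175 and 133 CPM in DMSO and 157 and 168 CPM in YKL, overlapping groups. All 9 genes were higher in DMSO replicate 1 than in DMSO replicate 2, and all 9 were lower in YKL replicate 1 than in YKL replicate 2. The order of the libraries was thus shared by the family, and how common it was over all genes was not counted. The size of the gap was not shared: Sf3b6 had 44.6 and 44.5 CPM in the DMSO libraries.

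The PRPF factors had no called gene among 13, although 2 had an unadjusted p under 0.05 by edgeR, both above 0. They were Prpf3 and Prpf4, whose proteins bind each other in the U4/U6 particle. Prpf3 had 75.2 and 50.8 CPM in DMSO and 119 and 106 CPM in YKL, with both YKL libraries above both DMSO libraries (log2 fold change 0.83 ± 0.22, edgeR adjusted p = 0.0726). DESeq2, the fit with no filter and the replicate block called it. Prpf4 had 111 and 103 CPM in DMSO and 138 and 157 CPM in YKL (0.46 ± 0.18, adjusted p = 0.184). For Prpf31, another protein of that particle (chosen with its value in view), the log2 fold change was -0.16 ± 0.22.

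Prpf8, the large protein at the heart of the spliceosome, was the most abundant PRPF gene at 127 CPM per kb. It had 1091 and 802 CPM in DMSO and 842 and 1057 CPM in YKL, with overlapping groups and a log2 fold change of 0.0039 ± 0.22. Prpf19, a ubiquitin ligase that activates the spliceosome, had 261 and 209 CPM in DMSO and 259 and 291 CPM in YKL (0.23 ± 0.19). Prpf38a had 129 and 102 CPM in DMSO and 87.1 and 101 CPM in YKL (-0.30 ± 0.20). Prpf40b, a factor that assists U1, had 24.1 and 34.8 CPM in DMSO and 26.8 and 10.8 CPM in YKL. Its YKL libraries differed 2.48-fold and overlapped with DMSO (-0.65 ± 0.44, adjusted p = 0.466).

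**Figure D4:**
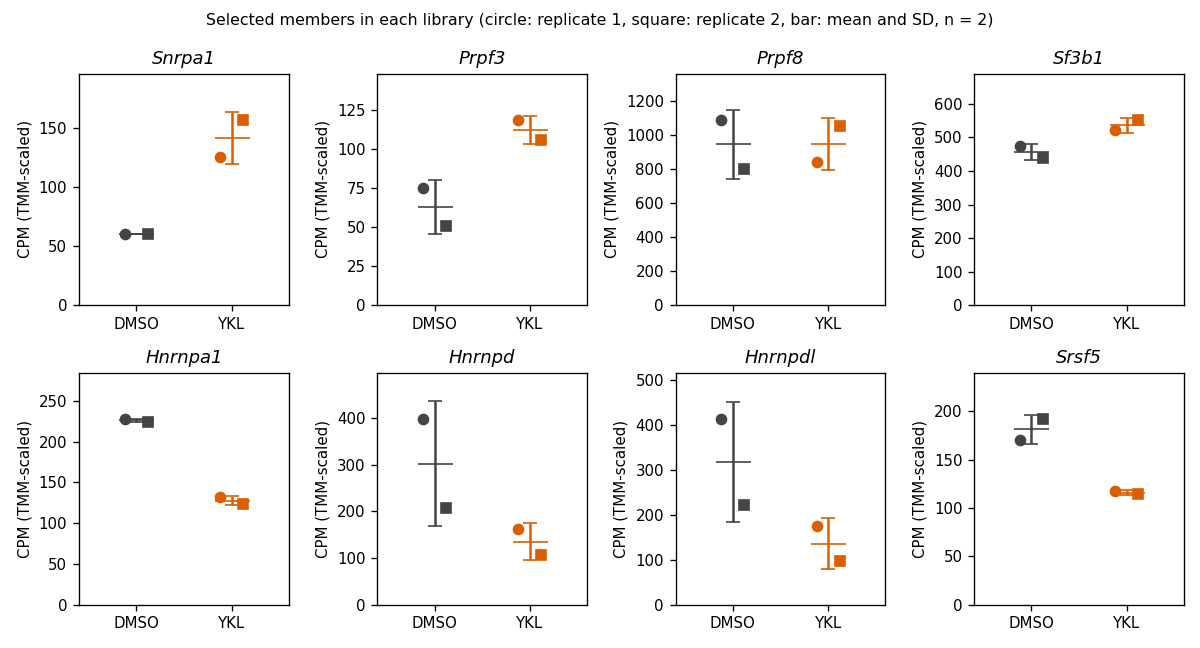
CPM of 8 members in each library, with replicate 1 as circles, replicate 2 as squares and bars for the mean and SD of 2 libraries. Snrpa1 and Prpf3 are higher in both YKL libraries, Hnrnpa1 and Srsf5 lower with close replicates, Hnrnpd and Hnrnpdl lower with wide replicates, and Prpf8 overlaps.

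The authors' deposited table, from their own DESeq2 comparison, lists all 65 members and calls 17 of them (26.2%) at an adjusted p under 0.05, against 27.8% of its 15936 genes. Of the members, 3 are higher in the authors' deposited table (4.62%, against 13.9% of all genes) and 14 lower (21.5%, against 13.9%). The 3 higher are Snrpa1 (log2 fold change 1.10), Prpf3 (0.76) and Prpf4 (0.42) in the authors' deposited table. Of the 14 lower in the authors' deposited table, 8 are hnRNP genes, led by Hnrnpdl (-1.18), Hnrnpd (-1.08) and Hnrnpa1 (-0.81). Both comparisons use the same 4 libraries, so this table is no second measurement.

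Beyond these families, 151 other genes of the splicing machinery were listed by role, and 150 of them passed the filter. Among these, 1 was called higher and 4 lower (3.33%, against 3.54% of all genes), with a median log2 fold change of -0.11. Ptbp2, a neuronal repressor of exons related to the polypyrimidine tract binding protein, had 79.8 and 54.8 CPM in DMSO and 22.4 and 16.6 CPM in YKL. The fall was 3.45-fold (log2 fold change -1.79 ± 0.25, edgeR adjusted p = 0.0112), more than any of the 65 members. The call of Ptbp2 held in 12 of 13 refits and ended without YKL replicate 2, in a fit that called a smaller share of all genes. Nova1, a neuronal regulator that binds YCAY motifs, rose 2.25-fold, from 29.3 and 19.8 CPM in DMSO to 53.7 and 56.6 CPM in YKL (adjusted p = 0.0322). Ewsr1, which encodes an RNA-binding protein, fell 1.95-fold from 586 and 446 CPM to 269 and 260 CPM (adjusted p = 0.0345). Tia1, which promotes weak splice sites and forms stress granules, fell 1.91-fold from 97.5 and 104 CPM to 60.2 and 45.3 CPM (adjusted p = 0.0393). Lsm4, of the ring on U6, fell 1.81-fold from 173 and 138 CPM to 79.3 and 92.6 CPM (adjusted p = 0.0474).

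The calls of Nova1, Ewsr1, Tia1 and Lsm4 ended when libraries were scaled by total count, when the prior was not robust, and without YKL replicate 1 or 2. Those of Tia1 and Lsm4 ended also with upper quartile scaling, and that of Lsm4 without DMSO replicate 1. Of all genes, total count scaling called 1.01%, the prior that was not robust 1.41% and upper quartile scaling 1.98%, against 3.54% in the main fit. The fits without YKL replicate 1 or 2 also called a smaller share of all genes than the main fit. Ptbp2, Nova1, Ewsr1 and Tia1 came from the list of other regulators of alternative splicing, where 47 genes were tested and 32 log2 fold changes were below 0. No gene was called for the recognition of the branch point and intron end (14 tested) or the PRP19 complex (18). Nor was any called among the partners of U5 and the tri-snRNP (7), second step and release factors (9) or the exon junction complex (9). The same held for SR-related proteins (14), SR protein kinases (6) and SMN and snRNP assembly (12). By edgeR's unadjusted p under 0.05, 3 of the 9 second step and release factors were lower (9.9% of all genes). They were Ddx39b, Ddx41 and Cwc22, while Dhx38, Slu7 and Cdc40 were not under that limit. On the SMN list 3 of 12 genes were higher (11.3% of all genes). Of these, Gemin4 had counts of only 11 and 6 in DMSO and 19 and 27 in YKL. It shares 89.8% of its exonic bases with Glod4 on the same strand. In 7 of the 9 second step and release factors both YKL libraries lay below DMSO (25.3% of all genes).

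Kinases that phosphorylate SR proteins were not called. Clk1 had 68.4 and 69.3 CPM in DMSO and 52.0 and 39.4 CPM in YKL (a log2 fold change of -0.59 ± 0.20, adjusted p = 0.131), and Clk4 had 64.9 and 65.8 CPM in DMSO and 62.6 and 44.3 CPM in YKL (-0.29 ± 0.21). Srpk1 had 102 and 121 CPM in DMSO and 138 and 125 CPM in YKL (0.24 ± 0.18). U2af1, which reads the end of the intron, had 69.2 and 50.5 CPM in DMSO and 59.1 and 61.7 CPM in YKL, overlapping groups. Among the snRNP proteins outside the symbol rule, Snrnp70, a U1 protein, had 210 and 313 CPM in DMSO and 290 and 399 CPM in YKL. Its log2 fold change was 0.39 ± 0.24 (edgeR adjusted p = 0.396), and from 0.139 to 0.677 with each library left out in turn. Snrnp200, the helicase of U5, had 486 and 316 CPM in DMSO and 365 and 503 CPM in YKL (0.11 ± 0.25), with groups that overlapped as those of its partner Prpf8 did.

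**Figure D5:**
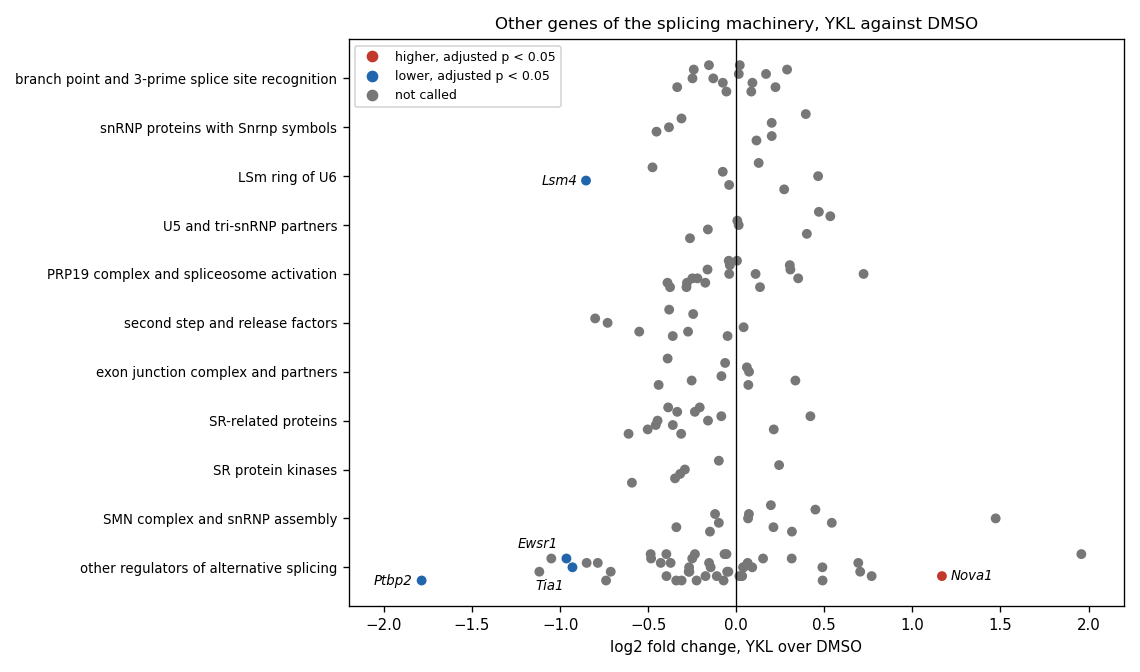
Log2 fold change, YKL over DMSO, of the 150 tested other splicing genes by role, with called genes labelled. Ptbp2 lies furthest to the left, Lsm4, Ewsr1 and Tia1 are also lower, and Nova1 is higher. Grey points beyond 1 in either direction were not called.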

How the data were processed

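Total RNA of 4 libraries was sequenced in bulk. The submitters' processing notes name STAR 2.5.2b, featureCounts and mm10. The strand setting is not given in the sources used here. The deposited values are raw counts per gene. The authors' DESeq2 table gives per gene a mean signal after normalization, the log2 fold change and its error, a test score, and a p-value with its adjusted form, and was used only beside the results here. Symbols and biotypes came from the deposited annotation, exon overlaps from GENCODE M21 and upstream bases from RefSeq (GRCm38.p6).

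Counts were fitted with edgeR 4.0.16 in R 4.3.3 (filterByExpr with a minimum count of 10 and total of 15, TMM scaling, quasi-likelihood test with a robust prior, 2 residual degrees of freedom). Every adjusted p in the text is from edgeR unless another tool or table is named, adjusted over all 16749 genes, and 0.05 is the threshold. The script was tested on simulated data. Per-length levels divide CPM by the deposited exon length. The groups come from the sample titles. Counts of the replicates differed beyond sampling noise (chi-square per degree of freedom 86.6 for DMSO and 37.1 for YKL), so none was a repeated library.

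The genes named were the called ones, in each family the 2 with the highest level per length and the 2 with the largest log2 fold change in each direction, 9 members chosen by name and 6 other splicing genes. Snrpb2, Snrpc, Snrpg, Sf3b6, Prpf31, Hnrnpu and Hnrnph1 fall outside this rule and were chosen after their values were seen. The same holds for Ddx39b, Ddx41, Cwc22, Dhx38, Slu7, Cdc40 and Gemin4. The members and all lists were chosen with earlier results of these data known. Alternatives were other scalings, filters, a replicate block, a prior that is not robust, protein-coding genes alone, DESeq2 1.42.0 and leaving out each library.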

Additional observations from a re-analysis of the deposited data

How the results depend on the processing

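Every alternative was fitted over all genes it tested. The 2 called members and 5 called other splicing genes (1 higher, 4 lower) became, with total count scaling, 0 members lower, 0 other genes higher and 1 lower. Without a robust prior the numbers were again 0 members lower, 0 others higher and 1 lower, and with upper quartile scaling 2 others were lower. The share of members called was 1.54% with total count scaling (1.01% of all genes), 1.54% without a robust prior (1.41%) and 3.08% with upper quartile scaling (1.98%). With no filter 2 members were higher and 5 lower (10.8%, against 5.79% of all genes), and 3 others higher and 12 lower. DESeq2 called 2 and 5 members (10.8%, against 9.55% of all genes), and 2 and 10 others. With the replicate number as a block, 2 members were higher and 3 lower (7.69%, against 8.28% of all genes). In that fit 4 others were higher and 9 lower. Same-numbered libraries deviated together weakly (correlation 0.138 over all genes), and with 2 pairs and no shared batch in the labels the numbers do not establish a pairing. Leaving out each library in turn gave 0 to 2 members higher, 0 to 7 lower, a median from -0.235 to 0.00518, 0 to 4 others higher and 0 to 14 lower. Over the same fits, the log2 fold changes of these uncalled genes lay on both sides of 0, from -0.538 to 0.0637 for Srsf2, -0.019 to 0.408 for Srsf9, -0.136 to 0.289 for Sf3a3, -0.235 to 0.245 for Prpf8, -0.576 to 0.458 for Snrpn, -0.23 to 0.262 for U2af1, -0.196 to 0.461 for Snrnp200, -0.184 to 0.165 for Hnrnpa2b1, -0.293 to 0.0909 for Hnrnpk, -0.33 to 0.00518 for Srsf1, -0.0141 to 0.469 for Srsf12 and -0.0785 to 0.0577 for Srsf7. Fits that leave out a library hold 1 group with a single sample, assumed to vary like the other group. The share of all genes called was above that of the main fit when either DMSO library was left out. It was below that of the main fit when either YKL library was left out. The share of members called moved in the same directions, so the counts from these fits do not single out the members. The causes of these changes were not tested. Other scalings, filters or tools also moved the near-zero values of Srsf7, Prpf8, U2af1 and Hnrnpa2b1 across 0. The common biological coefficient of variation was 25%, and the effect of depth was not tested.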
